A study of Mus musculus with 50 samples.

Results

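Chromosome 12 was followed along its length in mouse embryonic stem cells (ESCs) that carry the catalytically dead Y726D form of EZH2. Its members are the ATAC-seq regions listed on this chromosome, 34551 of 758495 autosomal regions in WT and 25247 of 739929 in Ezh2 Y726D ESCs, with 36389 of 786648 in Ezh1/2 dKO and 37378 of 779593 in Ezh2 KO ESCs. They were counted in 25 bins of 5 Mb (genome build mm9), each as a share of the autosomal regions of its own list. SUZ12 and H3K27ac peaks and the RNA of the genes on the chromosome were added. The chromosome was chosen by these ATAC-seq counts and its peaks belong to the same choice, so they are described here without a test, and the RNA-seq libraries are the only measure with replicates.

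The parental line is E14TG2a, called WT here. In Ezh2 KO and Ezh1/2 dKO ESCs the whole gene or both genes had been cut out with CRISPR/Cas9. Ezh2 Y726D and Ezh2 R685C ESCs carry a point mutation of Ezh2 written into Ezh1 KO cells, so that neither has EZH1, and the SUZ12 and H3K27me3 samples labelled for the Y726D mutation alone were taken as the same Ezh2 Y726D line. The lines were derived as clones and grown in 2i/LIF medium, and each list of ATAC-seq regions or ChIP-seq peaks comes from 1 library. RNA-seq covered all of these except Ezh2 R685C, with 2 libraries per line.

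EZH2 and EZH1 are the alternative enzymes of Polycomb repressive complex 2 (PRC2), which methylates lysine 27 of histone H3. SUZ12 is a core subunit of the complex and marks where it binds, mostly at CpG-rich promoters of developmental genes, while acetylation of the same lysine (H3K27ac) marks active promoters and enhancers. ATAC-seq finds DNA that a transposase can reach. Mouse chromosome 12 carries the pluripotency gene Esrrb, the imprinted Dlk1-Dio3 domain, developmental regulators such as Sox11, Pax9 and Nkx2-1, and the immunoglobulin heavy chain genes.

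Sequences of 5 regions of chromosome 12 are printed as examples with strong calls, not as typical members of the lists. For each list and each of 3 equal segments of the chromosome, the strongest region without a counterpart in Ezh2 Y726D was taken. ATAC-seq regions were ranked by the mean -log10 p of the 3 other lines, and SUZ12 peaks by that of WT. The 300 bases at the middle are printed on the plus strand of mm9, with each CG dinucleotide in capitals. The 3 ATAC-seq regions were listed in WT, Ezh2 KO and Ezh1/2 dKO. The first lies at chr12:34879323-34879560 in an intron of Hdac9, a histone deacetylase gene (window chr12:34879291-34879590). The second lies at chr12:42960081-42961063 in an intron of Immp2l, a gene of a mitochondrial inner membrane peptidase (window chr12:42960422-42960721). The third, at chr12:115034208-115034352, overlaps no gene of the annotation used here (window chr12:115034130-115034429). The nearest protein-coding start, that of Adam6a, is 252161 bases away and serves only as a label. Immunoglobulin gene segments, which the annotation may lack, were not looked for, so the window cannot be called free of genes.
Hdac9 intron: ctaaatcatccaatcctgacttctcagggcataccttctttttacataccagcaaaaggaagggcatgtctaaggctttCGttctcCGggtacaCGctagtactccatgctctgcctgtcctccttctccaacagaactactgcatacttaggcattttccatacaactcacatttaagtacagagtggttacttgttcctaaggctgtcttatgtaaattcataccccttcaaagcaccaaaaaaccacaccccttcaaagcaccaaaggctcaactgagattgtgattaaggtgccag
Immp2l intron: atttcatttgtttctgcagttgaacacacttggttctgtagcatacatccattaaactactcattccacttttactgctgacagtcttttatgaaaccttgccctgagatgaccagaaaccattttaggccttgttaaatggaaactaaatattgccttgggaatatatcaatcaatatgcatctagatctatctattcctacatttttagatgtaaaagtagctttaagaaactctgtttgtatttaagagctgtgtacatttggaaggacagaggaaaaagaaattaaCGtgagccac
Adam6a side: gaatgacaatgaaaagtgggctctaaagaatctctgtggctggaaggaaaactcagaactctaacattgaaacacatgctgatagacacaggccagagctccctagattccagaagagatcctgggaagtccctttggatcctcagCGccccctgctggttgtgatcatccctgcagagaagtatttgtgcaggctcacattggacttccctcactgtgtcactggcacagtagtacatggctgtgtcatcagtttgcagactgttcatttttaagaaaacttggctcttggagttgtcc

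The windows of the SUZ12 peaks were richer in CG. The WT SUZ12 peak at chr12:57712196-57714287 covers Nkx2-9, a homeobox gene, and its window (chr12:57713091-57713390) holds 24 CG across coding sequence and intron. The peak at chr12:110290011-110290883 lies in an intron of Begain, a gene of a postsynaptic protein, and its window (chr12:110290297-110290596) holds 11. The strongest such peak of the first segment, at chr12:14155785-14159091 over Fam84a, is not printed. Over chromosome 12, a CG was present in 87.4% of the 16160 WT ATAC-seq windows shared with Ezh2 KO and Ezh1/2 dKO and in all 239 WT SUZ12 windows (88.1% and 99.9% on the other autosomes).
Nkx2-9 peak: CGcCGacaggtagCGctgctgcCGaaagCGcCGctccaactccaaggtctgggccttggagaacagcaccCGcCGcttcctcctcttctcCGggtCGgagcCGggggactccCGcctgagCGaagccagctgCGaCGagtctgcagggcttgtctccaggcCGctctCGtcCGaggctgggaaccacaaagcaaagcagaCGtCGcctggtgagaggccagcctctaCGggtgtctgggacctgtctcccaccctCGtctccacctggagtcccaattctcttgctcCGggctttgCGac
Begain peak: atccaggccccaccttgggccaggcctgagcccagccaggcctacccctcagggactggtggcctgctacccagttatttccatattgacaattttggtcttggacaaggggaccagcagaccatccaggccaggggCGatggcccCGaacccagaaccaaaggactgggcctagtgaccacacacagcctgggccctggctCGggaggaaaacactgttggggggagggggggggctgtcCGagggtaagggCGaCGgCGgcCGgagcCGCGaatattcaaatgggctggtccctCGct

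Chromosome 12 held a smaller share of the ATAC-seq list in Ezh2 Y726D than in the other lines. It held 3.41% of the autosomal regions (Wilson 95% confidence interval 3.37 to 3.45), against 4.56% in WT, 4.79% in Ezh2 KO and 4.63% in Ezh1/2 dKO ESCs. The share was 0.738 times the median of the 3 other lines, and 0.441 times when the blocks inside the regions were counted in place of the regions. On the 18 other autosomes the same ratio ran from 0.955 on chromosome 16 to 1.07 on chromosome 2. Intervals here cover counting error only, not the variation between libraries, and the depth of sequencing is unknown. The number of copies of chromosome 12 per cell was not analysed here, and in bulk samples less signal in every cell and no signal in a part of the cells cannot be told apart.

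The lower share was found along the whole length of the chromosome. In all 25 bins the Ezh2 Y726D share stood below the median of the other lines, and in 24 it stood below all 3 of them, where 24.0% of the bins of all autosomes did so (97 of the 479 bins of the other autosomes). The ratio was lowest in bin 10, where Ezh2 Y726D had 9.15 regions per 10000 autosomal regions against 16.4 in WT, 20.7 in Ezh2 KO and 18.3 in Ezh1/2 dKO, a ratio of 0.500. It was highest in bin 23, where the values were 23.2, 24.2, 23.1 and 24.2 in the same order and the ratio was 0.962, the only bin in which Ezh2 Y726D was not the lowest line. The median bin had a ratio of 0.699. Among the bins of the other autosomes the lowest ratio was 0.767, on chromosome 4, and 16 of the 25 bins of chromosome 12 lay below it.

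**Figure D1:**
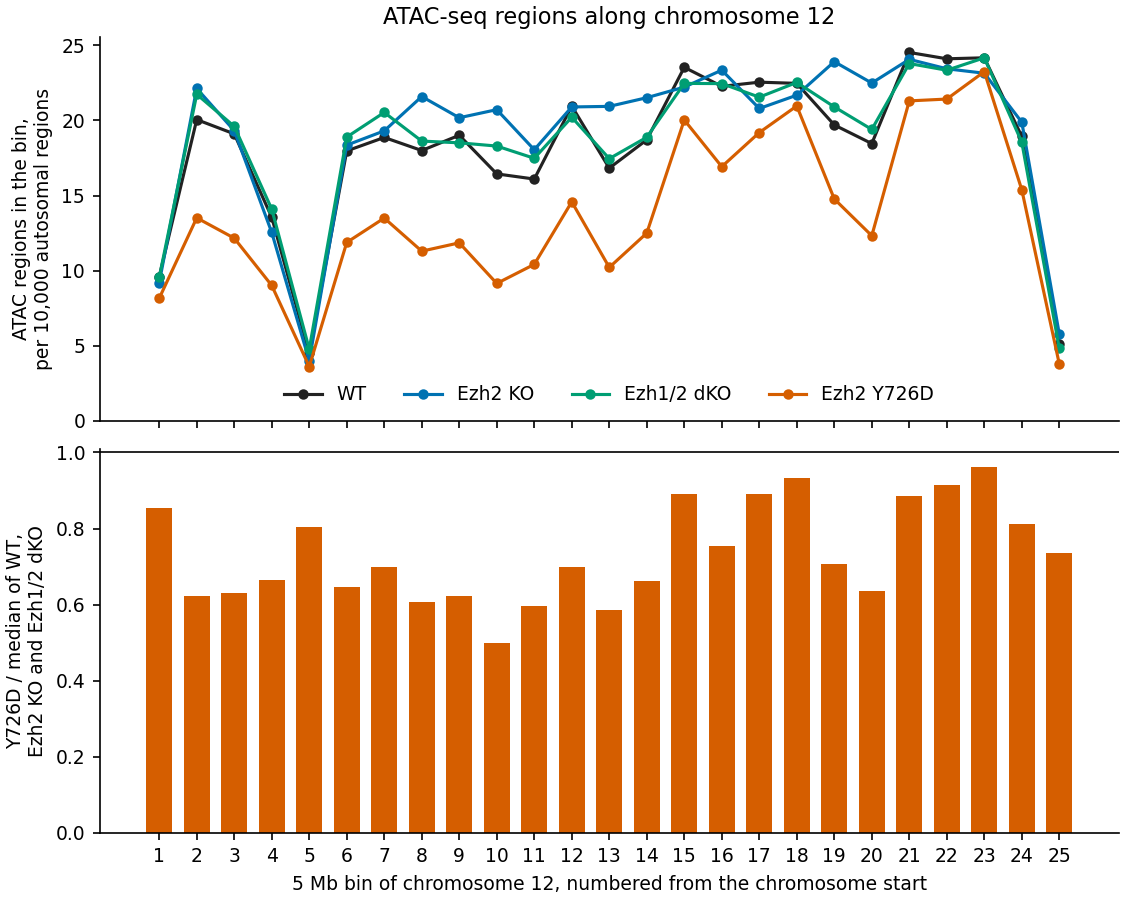
Upper panel, ATAC-seq regions in each 5 Mb bin of chromosome 12 per 10000 autosomal regions of the same list, 1 library per line (bin 1 begins with an unsequenced stretch and bin 25 is short). Lower panel, the Ezh2 Y726D value divided by the median of the 3 other lines, which runs from 0.500 in bin 10 to 0.962 in bin 23 and is below 1 in all 25 bins.

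The ratio was not even along the chromosome. In 3 equal segments it was 0.654, 0.683 and 0.848, counted from the start of the chromosome, and the bins with the most genes stood closest to the other lines. Over the 25 bins the ratio went with the C+G content (Spearman rho 0.78) and with the number of protein-coding starts (rho 0.67), and the same relations were present over the 479 bins of the other autosomes (rho 0.47 and 0.38). These are descriptions over bins that share 4 libraries and their base composition. Single regions told the same in each class of C+G content. Of the 16160 WT regions of chromosome 12 that were also listed in Ezh2 KO and Ezh1/2 dKO, 10072 (62.3%) had a region in Ezh2 Y726D, against 79.3% of the 341788 such regions elsewhere. With a C+G content of at most 35% in the 300-base window the shares were 48.7% on chromosome 12 and 67.2% elsewhere, and over 50% they were 76.6% and 87.5%. For the other lines the same comparison gave smaller differences between chromosome 12 and the rest. Of the Ezh2 KO regions also listed in Ezh1/2 dKO, WT had 70.2% on chromosome 12 and 72.7% elsewhere, and of the WT regions also listed in Ezh1/2 dKO, Ezh2 KO had 75.2% and 73.7%. Of the WT regions also listed in Ezh2 KO, Ezh1/2 dKO had 72.3% and 73.9%.

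The share of chromosome 12 in Ezh2 Y726D was lower among regions with a stronger call. Each region was classed by the -log10 p in its own list. A weaker call therefore moves a region to a lower class, and the classes do not show which sites were reduced most. Among regions with a -log10 p between 1 and 1.3, chromosome 12 held 4.10% of the Ezh2 Y726D list and 4.67% to 4.73% of the other lists. Between 3 and 5 it held 1.92% (95% interval 1.43 to 2.58) in Ezh2 Y726D and 5.17% to 5.38% in the others. Above 5 the lists held between 4 and 36 regions of chromosome 12, too few for an order. The regions of chromosome 12 were also narrower in Ezh2 Y726D, with a median width of 472 bp against 578 bp on its other autosomes, while the chromosome 12 medians of the other lines were 544 to 586 bp. Most listed regions are weak, with a median -log10 p of 1.304 on chromosome 12 in Ezh2 Y726D and 1.34 to 1.36 in the other lines. Fold enrichment differed little at WT regions also listed in Ezh2 KO and Ezh1/2 dKO that Ezh2 Y726D kept. It was a median of 0.988 times that of WT at the 10072 of chromosome 12 and 1.01 times at the 270903 elsewhere. Gene starts were reached almost as often as elsewhere: an ATAC-seq region lay within 1 kb of 617 of the 700 protein-coding starts of chromosome 12 in Ezh2 Y726D (88.1%) and of 88.7% of the starts of its other autosomes, where the other lines had 90.4% to 92.0% and 89.0% to 89.5%.

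**Figure D2:**
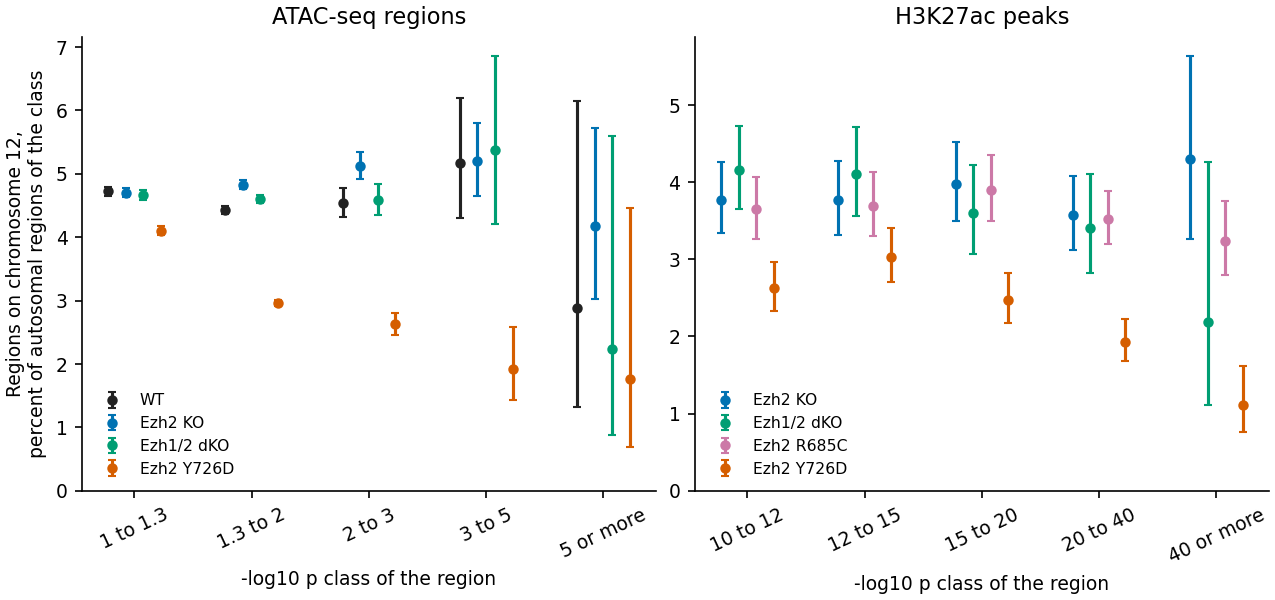
Percent of the autosomal ATAC-seq regions (left) and H3K27ac peaks (right) of each -log10 p class that lie on chromosome 12, with Wilson 95% intervals for counting error, 1 library per line. The Ezh2 Y726D points fall from 4.10% in the weakest to 1.92% in the fourth ATAC-seq class, while those of the H3K27ac classes begin at 2.63% and end at 1.11%.

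H3K27ac peaks were reduced along the whole chromosome too. They were compared among the 4 mutant lines, and WT H3K27ac was not analysed here. Chromosome 12 held 977 of the 40304 autosomal H3K27ac peaks of Ezh2 Y726D ESCs (2.42%, 95% interval 2.28 to 2.58), against 3.84% in Ezh1/2 dKO, 3.79% in Ezh2 KO and 3.62% in Ezh2 R685C, which had nearly as many peaks (40434). The ratio to the median of the other mutant lines was 0.639, and on the other autosomes it ran from 0.853 on chromosome 4 to 1.15 on chromosome 11. In the 3 segments it was 0.640, 0.562 and 0.678. All 25 bins had a ratio below 1, and in 23 of them Ezh2 Y726D was the lowest of the 4 lines, where 33.9% of all autosomal bins were of this kind. Bin 10 was again the lowest, with 2 peaks in Ezh2 Y726D, 3 in Ezh1/2 dKO, 7 in Ezh2 KO and 14 in Ezh2 R685C.

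Peaks that the other lines share were mostly kept but were weaker. Of the 378 chromosome 12 peaks of Ezh2 R685C that were also listed in Ezh2 KO and Ezh1/2 dKO, 332 (87.8%, 95% interval 84.1 to 90.8) had a peak in Ezh2 Y726D, against 95.8% of the 10133 peaks elsewhere. At the kept peaks the fold enrichment in Ezh2 Y726D was a median of 0.696 times that of Ezh2 R685C on chromosome 12 and 0.845 times elsewhere. For Ezh2 KO at the 378 shared peaks the ratios were 0.761 and 0.727, and for Ezh1/2 dKO 0.633 and 0.620. At gene starts, an H3K27ac peak lay within 1 kb of 31.0% of the 700 starts of chromosome 12 in Ezh2 Y726D and of 40.1% of the starts elsewhere. Ezh2 R685C, the line with the same Ezh1 KO background, had 42.9% on chromosome 12 and 39.9% elsewhere.

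SUZ12 peaks on chromosome 12 were fewer in Ezh2 Y726D as well. The Ezh2 Y726D list held 87 peaks on chromosome 12 of 3336 (2.61%, 95% interval 2.12 to 3.21), while WT held 239 of 5286 (4.52%), Ezh2 KO 74 of 1548 (4.78%), Ezh1/2 dKO 14 of 303 (4.62%) and Ezh2 R685C 148 of 3168 (4.67%). The share was 0.577 times that of WT and 0.561 times the median of the 4 other lines. With peaks of p at most 1e-20, of which Ezh2 Y726D had 10 on chromosome 12, it was 0.331 times that of WT. The ratio to that median varied more between autosomes than for ATAC-seq, from 0.812 on chromosome 11 and 0.837 on chromosome 4 to 1.47 on chromosome 10. In the 3 segments of chromosome 12 it was 0.474, 0.575 and 0.580. Ezh2 Y726D was the lowest line in 6 of the 23 bins with SUZ12 peaks, where 7.11% of all bins were of this kind, but single bins held few peaks. A bin where another line had no peak, as Ezh1/2 dKO in many, could not be counted, which limits both numbers. In Ezh2 Y726D the ratio to the median of the other lines was below 1 in 19 of the 23 bins. Of the 427 such bins of the other autosomes, 166 had a ratio below 1.

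The WT SUZ12 peaks of chromosome 12 were kept less often in Ezh2 Y726D than those elsewhere (29.7% against 46.8%). In Ezh2 R685C, 57.7% of the 239 WT SUZ12 peaks of chromosome 12 had a SUZ12 peak, against 52.3% on the other autosomes, and in Ezh2 KO 25.1% and 23.5%. In Ezh2 Y726D the share was lower on chromosome 12 than elsewhere in each of 5 classes of WT strength. It was 7.0% against 15.6% in the weakest class, where the 95% intervals overlapped (2.40 to 18.6 and 13.5 to 17.9), 39.6% against 63.4% in the fourth and 72% against 90.7% in the strongest. At the 71 WT peaks of chromosome 12 that Ezh2 Y726D kept, the fold enrichment was a median of 0.424 times that of WT, and 0.540 times at the 2363 peaks kept elsewhere. In Ezh2 KO the ratios were 0.469 and 0.470 and in Ezh2 R685C 0.757 and 0.765. No SUZ12 peak of chromosome 12 was among the 40 Ezh2 Y726D peaks with a -log10 p of 40 or more, which allows a share of up to 7.5% (3 counts of 40), against 4.68% of the 1540 such peaks in WT.

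**Figure D3:**
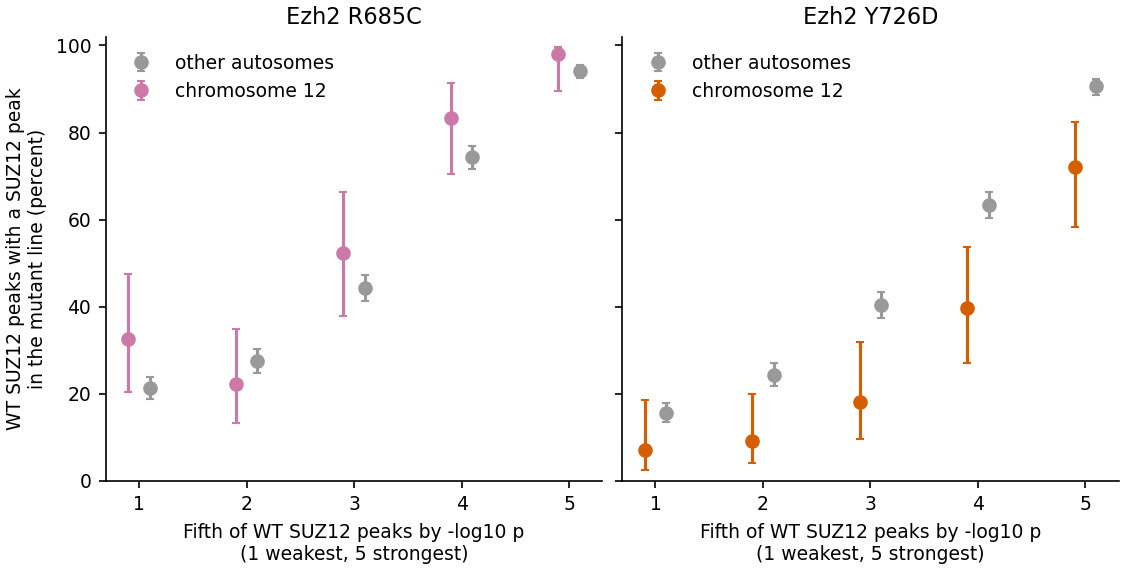
Percent of WT SUZ12 peaks with a SUZ12 peak in Ezh2 R685C (left) and Ezh2 Y726D (right), in 5 classes of equal number by the -log10 p of the WT peak, with Wilson 95% intervals. In Ezh2 Y726D the chromosome 12 point lies below that of the other autosomes in all 5 classes, and in Ezh2 R685C it lies above in 4 of them.

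Developmental regulators of chromosome 12 are described here by their peaks, and their counts were not compared with those of other genes. Of 21 regulators, 18 had a SUZ12 peak within 5 kb of the gene in WT, 17 in Ezh2 R685C, 12 in Ezh2 KO, 11 in Ezh2 Y726D and 3 in Ezh1/2 dKO. H3K27me3 peaks lay at 19 of them in WT, 19 in Ezh2 R685C and 18 in Ezh2 KO. Ezh2 Y726D and Ezh1/2 dKO each had such a peak at 1 of the 21, so the low count was not particular to Ezh2 Y726D. An H3K27ac peak lay at 8 of them in Ezh2 Y726D, against 4 in Ezh2 R685C, 2 in Ezh2 KO and 5 in Ezh1/2 dKO. At Nkx2-1, which specifies forebrain, thyroid and lung, the strongest SUZ12 peak had a fold enrichment of 36.8 in WT, 30.9 in Ezh2 R685C, 16.9 in Ezh2 KO, 10.2 in Ezh2 Y726D and 6.42 in Ezh1/2 dKO. At Osr1, a regulator of kidney and heart mesoderm, it was 22.5 in WT, 23.1 in Ezh2 R685C, 12.6 in Ezh2 KO and 5.90 in Ezh2 Y726D. Nkx2-9, whose sequence is given above, had a fold of 21.6 in WT, 14.1 in Ezh2 R685C and 7.29 in Ezh2 KO, no SUZ12 peak in Ezh2 Y726D or Ezh1/2 dKO, and an H3K27ac peak in Ezh2 Y726D (fold 7.27) but in none of the 3 other mutant lines.

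H3K27me2 lists gave a lower share as well. They start at a -log10 p of 1, and Ezh1/2 dKO, which lacks both enzymes, had more listed regions on chromosome 12 (23104) than WT (12995), so a listed region cannot be read as the mark. On the 18 autosomes listed in all lines, chromosome 12 held 3.78% of the H3K27me2 regions in Ezh2 Y726D, 4.83% in WT, 5.14% in Ezh2 KO and 5.11% in Ezh1/2 dKO. The ratio to the median of the others was 0.741, and the lowest on another autosome was 0.958. The 3 segments had ratios of 0.775, 0.796 and 0.712, and Ezh2 Y726D was the lowest line in 15 of the 25 bins, where 11.1% of all bins were of this kind. Here the ratio went against the C+G content over the 25 bins (rho -0.56), as it did over the bins of the other autosomes (rho -0.60). The H3K27me3 list of Ezh2 Y726D held 69 peaks on chromosome 12 of 3796 (1.82%), against 4.33% in WT, 4.41% in Ezh2 KO and 4.64% in Ezh2 R685C. The ratio to the median of the others, which include a list of 40 peaks in Ezh1/2 dKO, was 0.402. On the other autosomes it ran from 0.603 on chromosome 19 to 1.92 on chromosome 13. Over their bins it went against the C+G content (rho -0.62, and -0.31 over the bins of chromosome 12). The paper reports that Ezh2 Y726D ESCs lost H3K27me3 at Polycomb-bound sites, so a listed peak cannot be read as the mark here either. By segment the list held 25, 28 and 16 peaks in Ezh2 Y726D and 124, 177 and 420 in WT. H3K27me1 was not compared, since the lists used here for Ezh1/2 dKO and Ezh2 Y726D hold no region of chromosome 12.

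**Figure D4:**
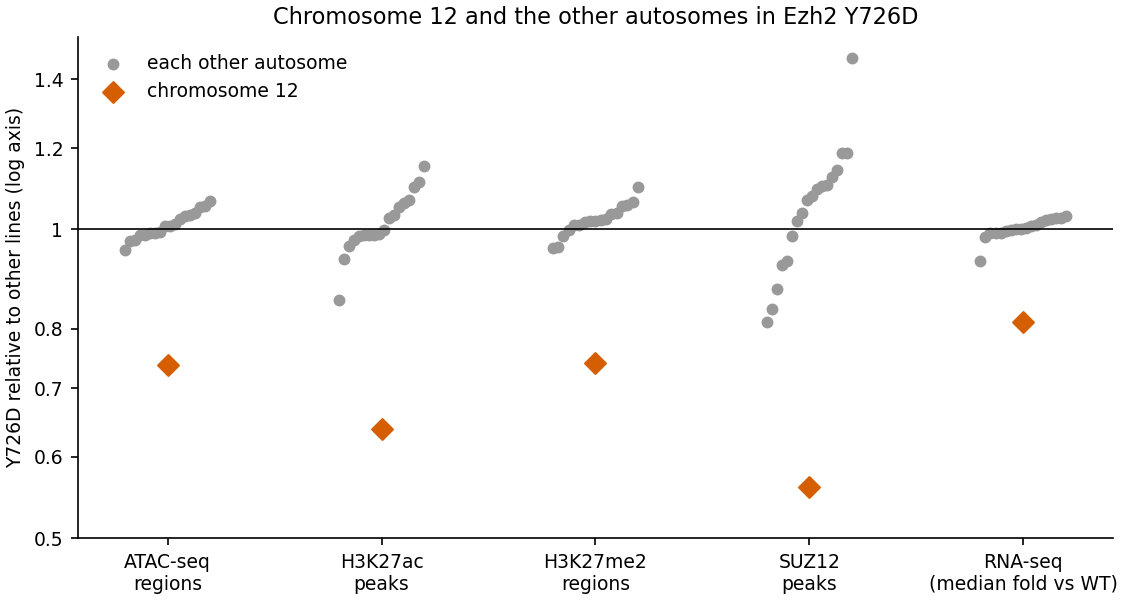
Share of each autosome in Ezh2 Y726D divided by the median share of the other lines, for 4 kinds of list, and the median RNA fold change of the genes of each autosome against WT, relative to the other autosomes, on a log axis. Chromosome 12 (diamonds) has the lowest value in each column, at 0.738, 0.639, 0.741, 0.561 and 0.812 from left to right. Each dot is another autosome (chromosome 8 is not in the H3K27me2 column).

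RNA was measured independently of the counts that chose the chromosome. The libraries held 3604123 to 5181553 gene reads. Of the 594 chromosome 12 genes of the table, 463 passed a mean normalized count of 5 and entered a limma test on the scale log2(normalized count + 1), where fold changes of low genes are understated. The labels do not say whether the 2 libraries of a line came from separate cultures. The targeted genes matched the labels: Ezh2 had 598 and 546 normalized counts in WT, 1.05 and 0.968 in Ezh2 KO, 0.824 and 1.78 in Ezh1/2 dKO and 422 and 613 in Ezh2 Y726D, and Ezh1 had 227 to 378 in WT and Ezh2 KO and 14.01 to 24.1 in the lines without it. The ESC markers Pou5f1, Sox2, Nanog, Zfp42, Klf4 and Esrrb were expressed in all 8 libraries, with at least 444 normalized counts.

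Genes of chromosome 12 were lower in Ezh2 Y726D as a group. Their median log2 fold change, relative to that of the other autosomes, was -0.30 against WT, -0.29 against Ezh2 KO and -0.36 against Ezh1/2 dKO, or 0.812, 0.817 and 0.779 times the level. The 3 comparisons share the 2 Ezh2 Y726D libraries. The same median was 0.01 for Ezh2 KO against WT and 0.06 for Ezh1/2 dKO against WT. On the other autosomes the lowest median of Ezh2 Y726D against WT was -0.10, on chromosome 4, which also had the lowest H3K27ac ratio after chromosome 12, and the highest was 0.04, on chromosome 9. Against WT, 353 of the 463 genes (76.2%) had a negative fold change, where 49.9% of the genes of the other autosomes did. Against Ezh2 KO it was 74.3%, and against Ezh1/2 dKO 84.0%.

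Both Ezh2 Y726D libraries showed the lower level. With every gene centred over the 8 libraries, the median of chromosome 12 relative to the other autosomes was -0.19 and -0.25 in the Ezh2 Y726D libraries. It was 0.04 and 0.07 in WT, 0.09 and 0.06 in Ezh2 KO and 0.15 and 0.08 in Ezh1/2 dKO, so the groups did not overlap, and the spread between replicates was 0.036 (pooled SD). Chromosome 12 took 2.85% and 2.79% of the autosomal reads in the Ezh2 Y726D libraries and 3.34% to 3.43% in the 6 others. Both Ezh2 Y726D libraries lay below all 6 others for 111 of the 463 genes (24.0%), where 6.8% of all genes tested did, and above all 6 for 7 genes (1.51%), where 4.51% did.

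The RNA difference covered the chromosome from end to end. Of the 23 bins with at least 5 tested genes, 22 had a median below that of the other autosomes against WT, 22 against Ezh2 KO and 23 against Ezh1/2 dKO, where 51.5%, 53.8% and 58.5% of the 431 bins of the other autosomes did. Against WT the lowest bin was bin 20 (-0.57, 5 genes) and the highest bin 2 (0.14, 11 genes, of which 4 were negative). In bin 23, where the ATAC-seq ratio was nearest to 1, the median of 57 genes was -0.12. In the 3 segments the median against WT was -0.23, -0.30 and -0.34, so the order was not that of the ATAC-seq ratios, and over the 23 bins the 2 measures had a Spearman rho of 0.19. From the lowest to the highest of 3 classes of expression the median was -0.33, -0.33 and -0.26 against WT, -0.17, -0.35 and -0.28 against Ezh2 KO and -0.30, -0.34 and -0.31 against Ezh1/2 dKO.

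**Figure D5:**
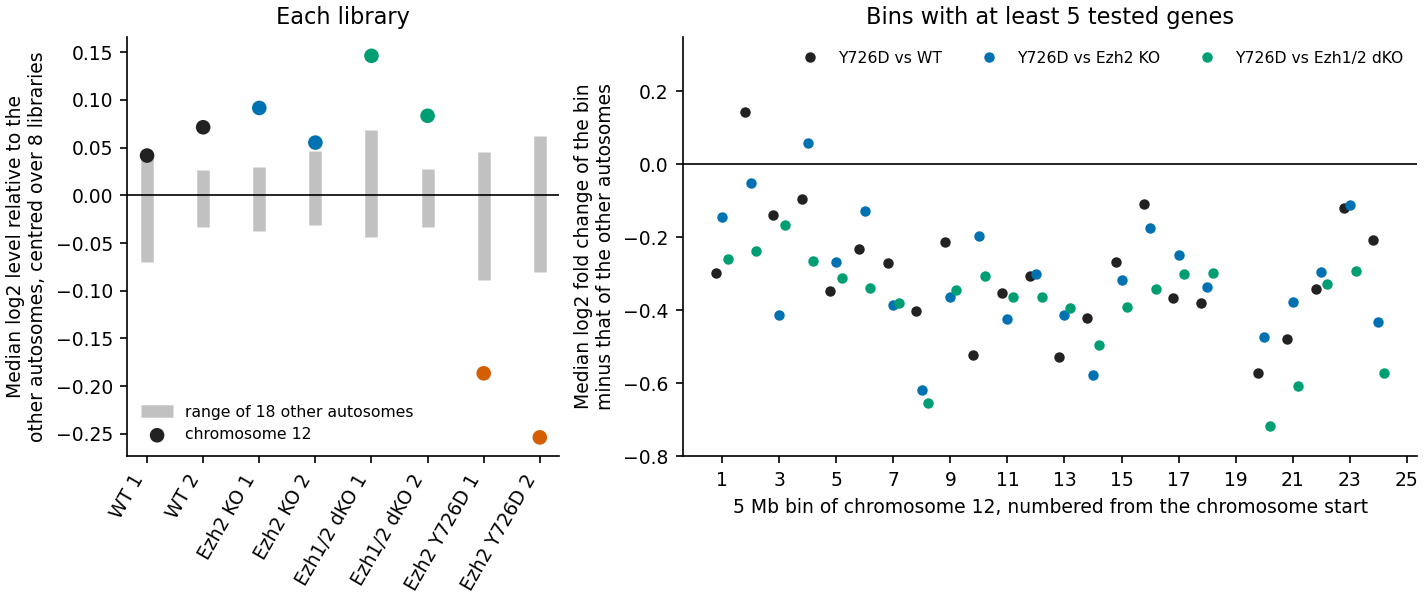
Left, median log2 level of chromosome 12 genes relative to the other autosomes in each RNA-seq library, after centring each gene over the 8 libraries, with the range of the 18 other autosomes as grey bars. The 2 Ezh2 Y726D libraries are at -0.19 and -0.25 and the 6 others between 0.04 and 0.15. Right, median log2 fold change of each 5 Mb bin of chromosome 12 with at least 5 tested genes, minus that of the other autosomes, for Ezh2 Y726D against each other line.

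Genes with and without a WT SUZ12 peak were set apart as a description. The 75 tested genes of chromosome 12 with such a peak within 5 kb of the start had a median log2 fold change of 0.32 against WT, where those of the other autosomes had 0.47. Against Ezh2 KO the medians were 0.59 and 0.61, and against Ezh1/2 dKO -0.54 and -0.18. The 388 genes without a SUZ12 peak had -0.32, -0.34 and -0.35 in the 3 comparisons, against -0.03, -0.02 and 0.01 elsewhere.

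Few single genes passed the test. At an adjusted p under 0.1 (limma, Benjamini-Hochberg over 13872 genes), 17 genes of chromosome 12 (3.67%) were called lower than in WT, 29 (6.26%) lower than in Ezh2 KO and 18 (3.89%) lower than in Ezh1/2 dKO. Over all genes tested the shares were 1.42%, 1.72% and 1.59%. Called higher were 3 (0.648%), 15 (3.24%) and 0, where 1.91%, 2.47% and 0.317% of all genes were. Against Ezh1/2 dKO, where limma called 0 genes higher, edgeR called 0 and DESeq2 1. At an unadjusted p under 0.05, 96, 120 and 116 genes were lower in the 3 comparisons, where 6.81%, 7.16% and 8.55% of all genes were, and 15, 33 and 3 were higher, against 7.47%, 8.59% and 4.55%. With a log2 fold change of -1 or less added to the adjusted p, 9, 12 and 18 genes were lower, against 1.06%, 1.21% and 1.49% of all genes. The numbers called depended on the samples fitted. For the fits that follow, the share of all genes called is not given, so their counts do not show whether chromosome 12 stood out. With only the 2 lines compared in the fit, which leaves fewer libraries to estimate the spread, 0, 8 and 11 genes were called lower (51 against WT at an unadjusted p under 0.05), so that none of the genes named below passed against WT in that fit. Without Ezh2 Y726D replicate 1 they were 34, 68 and 37, and without replicate 2 they were 11, 9 and 8. Without Ezh2 KO replicate 1 or 2 the second count was 5 or 2, and without Ezh1/2 dKO replicate 1 or 2 the third was 1 or 0 (58 at an unadjusted p under 0.05 for the latter).

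Called lower than in each of the 3 other lines were 4 genes of chromosome 12 (0.864%, against 0.44% of all genes). Iah1, an esterase gene at chr12:21322253-21329466, had 409.5 and 406 normalized counts in WT, 491 and 492 in Ezh2 KO, 403 and 446 in Ezh1/2 dKO and 185 and 129.8 in Ezh2 Y726D. Both Ezh2 Y726D libraries lay far below the 6 others, with a log2 fold change of -1.39 against WT (SE 0.19, limma adjusted p = 0.0145). Fbln5, which encodes an extracellular protein of elastic fibres (chr12:102984775-103057265), had 70.7 and 107 in WT, 125 and 151 in Ezh2 KO, 150.02 and 293 in Ezh1/2 dKO and 22.3 and 12.3 in Ezh2 Y726D (log2 fold change -2.32 against WT, SE 0.41, limma adjusted p = 0.0327). Stk30, a protein kinase gene (chr12:112046008-112079149), had 280.1 and 249 in WT, 199.8 to 261 in the knockout lines and 99.9 and 95.1 in Ezh2 Y726D (log2 fold change -1.43, SE 0.19, limma adjusted p = 0.0139). These 3 genes lie in bins 5, 21 and 23. The fourth, Wdr20rt, had 52.0 and 85.7 in WT and 14.3 and 2.24 in Ezh2 Y726D (log2 fold change -3.27, SE 0.65, limma adjusted p = 0.0480). It is a retrocopy of Wdr20, and reads may have been split between the 2 copies.

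The 3 genes called higher than in WT had low levels in WT and similar levels in Ezh2 Y726D and Ezh1/2 dKO. Amn, a partner of the endocytic receptor cubilin, had 6.67 and 7.70 normalized counts in WT, 23 and 13.5 in Ezh2 KO, 55.2 and 35.5 in Ezh1/2 dKO and 50.8 and 42.5 in Ezh2 Y726D (log2 fold change 2.54 against WT, SE 0.45, limma adjusted p = 0.0324). Its Ezh2 Y726D values lay between those of Ezh1/2 dKO. Kif26a, of the kinesin family, rose from 12.01 and 2.89 to 38.3 and 36.9 (2.44, SE 0.57, limma adjusted p = 0.0778), and Atp6v1c2, a subunit gene of the proton pump V-ATPase, from 8.004 and 4.81 to 41.0 and 31.3 (2.35, SE 0.59, limma adjusted p = 0.0928). In Ezh1/2 dKO they had 41.2 and 32.9, and 41.2 and 70.1.

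Of the 21 developmental regulators, 19 are in the RNA table and 12 were tested. Against WT, 0 were called (limma), 3 had a negative fold change and the median was 0.81, where all genes had -0.01. At an unadjusted p under 0.05, Nkx2-9 and Pax9 were among the higher genes and Six4 was lower. Against Ezh2 KO the median was 1.35, where all genes had 0.0037 and genes of the other autosomes with a WT SUZ12 peak had 0.61. Called higher were 3 of the 12, Sox11 and Nkx2-9 among them, where 2.47% of all genes were. Against Ezh1/2 dKO 9 of the 12 were negative, the median was -0.41 and 0 were called. Nkx2-9 had 8.004 and 6.74 normalized counts in WT, 4.18 and 3.87 in Ezh2 KO, 20.6 and 12.4 in Ezh1/2 dKO and 25.9 and 30.2 in Ezh2 Y726D, which were the highest of the 8 libraries (log2 fold change 1.79 against WT, SE 0.50, limma adjusted p = 0.125, and 2.53 against Ezh2 KO, adjusted p = 0.0410). Sox11, a factor of neural progenitors, had 40.02 and 31.8 in WT, 5.23 and 6.77 in Ezh2 KO, 71.7 and 39.1 in Ezh1/2 dKO and 95.4 and 42.5 in Ezh2 Y726D (3.22 against Ezh2 KO, SE 0.49, limma adjusted p = 0.0163). Both Ezh2 Y726D values lay above those of WT, the lower one within the Ezh1/2 dKO range, and the difference from WT was not called (limma adjusted p = 0.520). Six4, which had H3K27ac peaks in the 4 mutant lines and no SUZ12 peak in any line, had 189 and 164 in WT and 125 and 62.6 in Ezh2 Y726D (-0.98, SE 0.32, limma adjusted p = 0.182).

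Pluripotency and DNA methylation genes of the chromosome were not called. None of Esrrb, Tcl1, Dnmt3a and Mycn, which is also among the developmental regulators, was called in any of the 3 comparisons (limma, 0 calls each), all 4 had negative fold changes in each, and their median against WT was -0.25. Esrrb, an orphan nuclear receptor of the naive state, had 2082 and 2307 normalized counts in WT, 2497 and 2279.7 in Ezh2 KO, 2033 and 1947 in Ezh1/2 dKO and 1969 and 1812 in Ezh2 Y726D (log2 fold change -0.21 against WT, SE 0.12, limma adjusted p = 0.464). Dnmt3a, a de novo DNA methyltransferase, had 796 and 664 in WT and 574 and 336 in Ezh2 Y726D, while the knockout lines ranged from 404 to 922, so that the groups overlapped (-0.73, SE 0.32, limma adjusted p = 0.35). At an unadjusted p under 0.05, Esrrb was lower than in Ezh2 KO, and none of the 4 genes passed in the other comparisons.

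The imprinted Dlk1-Dio3 domain, in bin 23, did not share the direction. Of its 6 genes, 5 were tested, and 0 of these had a negative fold change against WT or against Ezh2 KO. Their median was 0.20 against WT, with 0 calls (limma, 0 also at an unadjusted p under 0.05). Rian, a maternally expressed noncoding RNA, had 455 and 415 in WT, 325 and 342 in Ezh2 KO, 359 and 362 in Ezh1/2 dKO and 489 and 501 in Ezh2 Y726D, which were the highest values of the 8 (0.57 against Ezh2 KO, SE 0.14, limma adjusted p = 0.0853). Meg3, transcribed from the same allele, had 448 and 771 in WT and 612 and 687 in Ezh2 Y726D, within the WT range. Dio3, a thyroid hormone deiodinase gene of the paternal side, had 13.3 and 5.78 in WT, 5.23 and 0.968 in Ezh2 KO, 95.6 and 112 in Ezh1/2 dKO and 18.7 and 26.8 in Ezh2 Y726D, and was called higher than in Ezh2 KO (2.74, SE 0.64, limma adjusted p = 0.0669). Rtl1 overlaps an antisense transcript that unstranded reads cannot tell apart, and its values are not interpreted.

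Housekeeping genes of the chromosome had small differences. Of 20 such genes, 18 had a negative fold change against WT and 19 against Ezh2 KO, with medians of -0.23 and -0.14, and 10 against Ezh1/2 dKO with a median of -0.01. None was called (limma, 0 of 20 in each comparison), and 5 were at an unadjusted p under 0.05 against WT, 4 of them lower and Akt1 higher. Hsp90aa1, a chaperone, had 4833 and 3713 in WT, 4027 and 3641 in Ezh2 KO, 3229 and 3391 in Ezh1/2 dKO and 3318 and 3436 in Ezh2 Y726D, so that the Ezh2 Y726D values overlapped those of Ezh1/2 dKO (-0.33 against WT, SE 0.14, limma adjusted p = 0.313). Akt1, a kinase of growth signalling, went the other way, with 54.7 and 75.1 in WT, 71.1 to 107 in the knockout lines and 112 and 132 in Ezh2 Y726D (0.92 against WT, SE 0.30, limma adjusted p = 0.186).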

How the data were processed

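ATAC-seq, ChIP-seq and RNA-seq were analysed from deposited files. Bowtie placed the reads on mm9, Picard took out duplicates and MACS2 called the peaks. Regions carry a fold enrichment (ratio) and a -log10 p in the lists that the authors deposited, and SUZ12, H3K27ac and H3K27me3 lists end at 1e-10. Settings of the broad ATAC-seq and H3K27me2 calls, and the control used, were not given in the sources used here. The depth behind the lists is unknown. For RNA-seq, the authors counted reads per gene and deposited normalized counts (a signal scaled by DESeq2 size factors); all of these were whole multiples of 1 read, so reads were recovered.

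Regions were assigned to 5 Mb bins by position and divided by the autosomal total of their list. Lists overlapped at 1 base or more. Each line has 1 list, so no test between lines was made. RNA was fitted with limma 3.58.1 (R 4.3.3) on log2(normalized count + 1) for genes with a mean of at least 5, over all 8 libraries, with Benjamini-Hochberg adjustment and calls at 0.1. Alternatives on recovered reads used edgeR 4.0.16 and DESeq2 1.42.0. Scripts were tested on simulated data. Of 18055 genes, 16570 were placed by RefSeq symbol, 854 by synonym and 631 not at all. The authors' own fold changes and p-values were not used.

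The chromosome, members and gene lists were chosen with earlier results of these data known. Named genes were the listed developmental, pluripotency, imprinted and housekeeping genes of chromosome 12, those called lower than in all 3 other lines, and up to 5 called higher than in WT; only those the results turn on are given with values. Some genes of these lists are not reported here.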

Additional observations from a re-analysis of the deposited data

How the results depend on the processing

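Among the results recomputed (the ATAC-seq, SUZ12 and H3K27ac shares, the ATAC-seq and RNA bins, the RNA shifts and counts, and 18 fold changes of named genes) none reversed; the other values were not recomputed. The ATAC-seq ratio of 0.738 was 0.629 in the stronger part of each list (at or above its median), 0.706 with lists of equal length, 0.631 in covered bases and 0.441 when the blocks inside regions were counted. Ezh2 Y726D was the lowest line in 58 of the 2 Mb bins and 13 of the 10 Mb bins of chromosome 12. The share of such bins on the other autosomes was not computed at these sizes. The SUZ12 ratio to WT was 0.331 at p of at most 1e-20, with 10 peaks left on chromosome 12. The H3K27ac ratio was 0.515 at that limit, 0.521 with equal lengths and 0.595 in bases.

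The median RNA shift ranged from -0.31 to -0.27 against WT, -0.34 to -0.25 against Ezh2 KO and -0.39 to -0.30 against Ezh1/2 dKO when 1 library was left out, where the lone library is assumed to vary like the other lines, and against Ezh2 KO it was -0.22 without a filter. Counts of lower genes were less stable. For fits other than the main one, the share of all genes called is not given beside them. Leaving out 1 library gave 11 to 34 against WT, 2 to 68 against Ezh2 KO and 0 to 37 against Ezh1/2 dKO. A change of 1 or more on the log2 scale left 9 and 12 genes against WT and Ezh2 KO, and an adjusted p under 0.05 left 10, 11 and 7. Fitting only the lines compared left 0 (51 at an unadjusted p under 0.05), 8 and 11. Of the genes called higher than in Ezh2 KO, Rian and Dio3 were not called in that fit (limma adjusted p = 0.189 and 0.143). Nkx2-9 and Sox11 were (limma adjusted p = 0.0949 and 0.0530). Without a filter the counts against Ezh2 KO and Ezh1/2 dKO were 18 and 11, and with a minimum of 20 the latter was 11. edgeR called 16, 27 and 22 and DESeq2 21, 39 and 25. The cause of these differences was not tested. Of the genes called against WT, Iah1, Stk30 and Amn passed in 11 of 12 alternatives, Fbln5 and Wdr20rt in 10, Kif26a in 7 and Atp6v1c2 in 5; the fit of only the lines compared gave adjusted p of 0.133 to 0.281 (limma).

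With the replicate number as a block, 12, 19 and 12 genes of chromosome 12 were called lower, without a share over all genes beside them. Deviations of same-numbered libraries correlated at 0.22 to 0.29 among the 3 mutant lines and at -0.41 to -0.07 with WT. The numbers were therefore not taken as a pairing in the main fit, and whether some libraries share a batch was not tested.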
